A study of Xenopus tropicalis with 11 samples.

Results

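The outermost 1 Mb at both ends of every chromosome of the frog *Xenopus tropicalis* was examined in native ChIP-seq read counts per 10-kb bin. A bin belonged to a chromosome end when its middle lay at most 1 Mb from position 0 or from the last position of that chromosome in the table of counts. On chromosomes 1 to 10 this gave 20 ends of 100 bins each, so 2000 of the 144914 bins on chromosomes and of the 145051 bins of the whole table. The end that starts at position 0 is called left and the other end right, as the assembly is numbered, and short and long arms were not assigned. The choice used position alone and none of the measured values.

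A chromosome end holds the telomere, the short repeat that caps the DNA, and next to it the subtelomere, where repeated sequences and gene copies shared between chromosomes tend to build up. Cenp-a is the histone H3 variant that replaces H3 in the nucleosomes of the centromere and marks the place where the kinetochore forms. In native ChIP, chromatin is cut into single nucleosomes with micrococcal nuclease without any crosslinking, and an antibody pulls out the nucleosomes that carry its target. The input is the digested chromatin before the antibody, so its counts follow how much nucleosomal DNA of a bin was released, how many copies the cells carry and how well reads can be placed there. These contributions to an input level cannot be told apart here.

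The 11 libraries came from XTN-6 cells, a cultured *X. tropicalis* line of wild-type genotype and the NXR Nigerian strain, with no treatment in any group. The sample labels also give the cell type as whole tadpole at stage NF 20. Per the study, the XTN-6 line came from dissociated embryos of about stage 20, and the ChIP used the cultured cells. DNA counts hold no expression marker by which to check either label. There were Cenp-a ChIP libraries of replicates 1, 2 and 3, bulk nucleosome libraries (histone H4 ChIP in replicate 1 and histone H3 ChIP in replicates 2 and 3, written H3/H4), ChIP libraries with nonspecific rabbit IgG of replicates 2 and 3, and input libraries of replicates 1, 2 and 3. In H3/H4 the H4 antibody and replicate 1 cannot be told apart, while replicates 2 and 3 both used H3. The series design calls the replicates biological while the study's methods call them technical, so the p-values measure the spread between these libraries, which may be technical.

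The libraries held 4053600 (IgG 2) to 229872947 (Cenp-a 3) counts, and the median end bin had 29 to 1271 counts in them. The Cenp-a antibody had a clear target elsewhere: 77 chromosome bins exceeded input by 5-fold or more, and all 77 lay over 5 Mb from an end. Between 14 and 52 end bins had 0 counts in a library, and 10 of the 2000 had 0 in all 11 (0.5%), against 132 of the other chromosome bins (0.0924%). The table stops before the last annotated gene of chromosome 8 (by 7283 bp) and of chromosome 10 (by 8088 bp), so the very tips of these right ends were not counted. The last bin of every right end is a full 10 kb, so a shorter remainder may be missing at the other right ends too. This was not checked, and a tip here means the last bin of the table. Reads of any mapping quality were counted, and a read of a repeat may stand in another copy of it.

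Chromosome ends carried more reads per bin than the rest of the chromosomes in every library, and the excess was smaller in Cenp-a than in input. The mean count of an end bin, divided by the mean of the other chromosome bins of the same library, was 1.54, 1.69 and 1.52 in Cenp-a 1, 2 and 3. It was 1.57 in H4 1, 1.94 in H3 2 and 1.55 in H3 3. It was 2.07 and 1.99 in IgG 2 and 3 and 2.19, 1.85 and 1.94 in input 1, 2 and 3. The 3 Cenp-a libraries lay below the 3 inputs without overlap, while H3 2 lay among the inputs and the other H3/H4 libraries among the Cenp-a libraries. The end bins thus took 2.11%, 2.30% and 2.08% of the chromosome counts in Cenp-a, 2.16% in H4 1, 2.64% and 2.12% in H3 2 and 3, 2.81% and 2.71% in IgG, and 2.97%, 2.53% and 2.64% in input.

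The means were 1.58 ± 0.0896 in Cenp-a and 1.99 ± 0.174 in input (SD, n = 3 each), a ratio of 0.794. An exact two-sided permutation test over the libraries gave p = 0.1, the smallest that 3 against 3 allows, and an adjusted p of 0.15 over the 3 tests of this kind. H3/H4 averaged 1.69 ± 0.217 against the same inputs (n = 3 each, exact permutation p = 0.2, adjusted p = 0.2). Cenp-a against the 8 other libraries pooled (1.89 ± 0.224) gave an exact permutation p of 0.0606 and an adjusted p of 0.15, where the smallest p possible was 0.0121. No test of the level over all ends therefore passed 0.05. These permutation tests treated the libraries as independent and did not use the replicate pairing.

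At least part of the excess in the mean sat in a few bins with very high counts. By medians in place of means, the same ratio of end bins to other bins was 0.976, 1.0 and 0.926 in Cenp-a, 1.02 in H4 1, 1.14 and 0.931 in H3 2 and 3, 1.21 and 1.17 in IgG, and 1.34, 1.13 and 1.18 in input. The typical end bin was above the typical other bin in input and IgG, and close to it in Cenp-a. Divided by the input of the same replicate, the end level by means was 0.705, 0.909 and 0.785 in Cenp-a, 0.719 in H4 1, 1.05 and 0.80 in H3 2 and 3, and 1.12 and 1.03 in IgG 2 and 3. Replicate 2 gave the highest ratio for Cenp-a, H3/H4 and IgG alike. Without the 4 ends that hold long stretches of very high input (described below, and chosen after their values were seen), the end level was 0.975, 1.04 and 0.942 in Cenp-a and 1.34, 1.15 and 1.20 in input, and Cenp-a over its own input was 0.728, 0.911 and 0.788. The end level without these ends was 1.07 in H4 1, 1.17 and 0.958 in H3 2 and 3, and 1.26 and 1.19 in IgG. No excess in the mean was thus left in Cenp-a 1, Cenp-a 3 and H3 3.

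**Figure D1:**
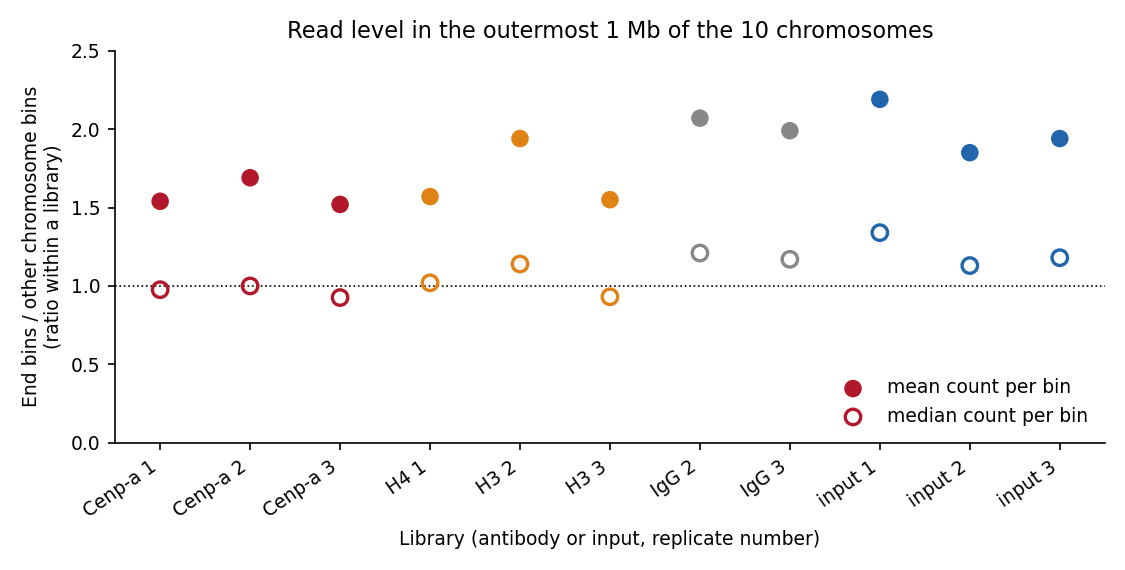
Ratio of the count per bin in the outermost 1 Mb to that in all other chromosome bins, within each of the 11 libraries; filled points are ratios of mean counts and open points ratios of median counts, and the dotted line is 1. The 3 Cenp-a libraries (means 1.52 to 1.69) lie below the 3 inputs (1.85 to 2.19), and H3 2 (1.94) stands apart from H4 1 (1.57) and H3 3 (1.55).

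Levels were highest in the outer 100 kb and lower further in, in every library. On a scale where the median chromosome bin of a library is 1, the median of the 200 bins in the outer 100 kb was 1.23, 1.29 and 1.2 in Cenp-a, 1.48 in both IgG libraries and 1.62, 1.47 and 1.44 in input. At 700 to 800 kb it was 0.852, 0.896 and 0.827 in Cenp-a, 1.08 in both IgG libraries and 1.19, 1.02 and 1.08 in input. Cenp-a and input both declined, and the difference between them hardly depended on the distance within the outer 1 Mb. The median log2 fold change of Cenp-a against input lay between -0.40 and -0.30 in each of the 10 classes of 100 kb.

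**Figure D2:**
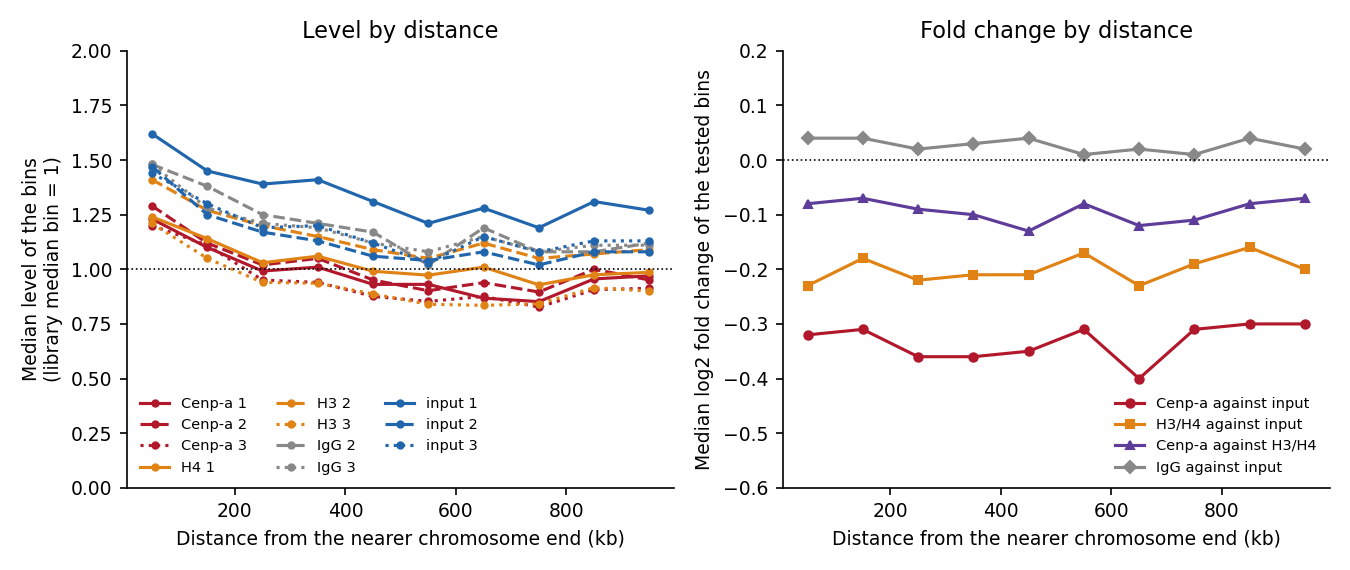
Left, median bin level (library median bin = 1) in 10 classes of 100 kb from the nearer chromosome end, 1 line per library with the line style giving the replicate; right, median log2 fold change of the tested bins in the same classes for 4 comparisons. The level is highest in the outer 100 kb in each library, while Cenp-a against input stays between -0.40 and -0.30.

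Bin by bin, Cenp-a was lower than input over much of the chromosome ends, by small amounts. A bin was tested when 50% or more of the libraries of a comparison had 10 or more counts in it. The test was the quasi-likelihood test of edgeR with a block for the replicate, and bins passed where the p adjusted by Benjamini-Hochberg over all chromosome bins was under 0.05. Of the 1959 end bins tested, 862 were called lower in Cenp-a than in input, which is 44.0% where 5.47% of all tested chromosome bins were called lower. Higher calls numbered 9 (0.459%), where 3.82% of all tested bins were called higher. The median end bin had a log2 fold change of -0.33, against 0.00 over all tested chromosome bins, and 1850 end bins (94.4%) were below 0. The 862 ranged from -1.61 to -0.29, with standard errors of 0.09 to 0.514, and 761 of them were lower than their own input in all 3 replicates. They were called on these same libraries, so this agreement is in part built in. Only 4 of the 862 reached 2-fold, where 0.0173% of all tested bins did, and no end bin reached 5-fold in either direction, where 0.0532% of all tested bins were at least 5-fold higher. Leaving out replicate 1 or 3 reduced the lower calls to 264 and 170, leaving out replicate 2 increased them to 1196, and DESeq2 called 275. The share of all chromosome bins called is not given for these other fits.

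The difference faded inwards rather than stopping at 1 Mb. The median log2 fold change was -0.33 in the outermost 1 Mb, -0.31 at 1 to 2 Mb, -0.27 at 2 to 3 Mb and -0.14 at 9 to 10 Mb, and the share of bins called lower was 44.0%, 39.0%, 31.2% and 13.1% in these zones. Over 5 Mb from an end, 4827 of 134710 tested bins were lower (3.58%) and 5441 were higher. Whether the outermost 1 Mb differs from the next Mb was not tested.

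End bins were mostly below input in bulk nucleosomes too, although few passed the test there. H3/H4 against input gave a median log2 fold change of -0.20 over 1958 tested end bins, with 1733 below 0, and 2 were called lower and 0 higher by edgeR, where 0.00415% of all tested bins were called in each direction. At an unadjusted p under 0.05, 660 end bins were lower (33.7%) and 11 higher (0.562%). Of all tested chromosome bins, 7.1% were lower and 8.14% higher by that measure. DESeq2 called 13 lower, and the fit without replicate 2 called 537 lower and 4 higher. For these fits no share of all chromosome bins is given, so the counts show only how the calls moved. Replicate 2 holds the H3 library whose end level was that of the inputs: 2 of the 20 ends were below their own input in H3 2, against 20 of 20 in both H4 1 and H3 3.

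Cenp-a set directly against H3/H4 differed little at the ends. The median log2 fold change was -0.09 over 1956 tested end bins, with 1 bin called higher (0.127% of all tested bins were) and 1 called lower (0.00761% were). At an unadjusted p under 0.05, 22 end bins were higher (1.12%) and 228 lower (11.7%), where 2.05% and 3.33% of all tested bins were. IgG against input had a median of 0.03 over 1963 tested end bins and no called bin by edgeR or DESeq2. Of all tested bins, edgeR called 0.00% higher and 0.00207% lower. Unadjusted p-values under 0.05 were found in 57 higher (2.9%) and 11 lower (0.56%) end bins, against 0.537% and 0.515% of all tested bins. IgG had 2 libraries, and IgG 2 was the shallowest of all. The 862 end bins lower in Cenp-a than in input had medians of -0.48 in that comparison, -0.29 for H3/H4 against input, -0.14 for Cenp-a against H3/H4 and 0.01 for IgG against input. These comparisons share libraries, so their values are not independent.

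How many reads the inputs had in a bin went along with the share called. Of the tested end bins with a mean input level up to 0.5 of the median chromosome bin, 14.7% were called lower in Cenp-a. The share was 30.9% for levels of 0.5 to 1, 48.0% for 1 to 2, 73.3% for 2 to 5 and 50.0% above 5, where 36 of 72 bins were called. The median log2 fold changes of these classes, from -0.42 to -0.31, differed less than the shares did. Among the other chromosome bins the shares were 3.52%, 1.22%, 7.14%, 27.6% and 31.3% in the same classes. In each class a larger share of end bins than of other bins was called. The inputs that set these classes are also the reference of the test, so the classes and the calls are not independent. The part of the input level in these calls was not tested, and GC content and mappability of the bins were not analysed here.

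**Figure D3:**
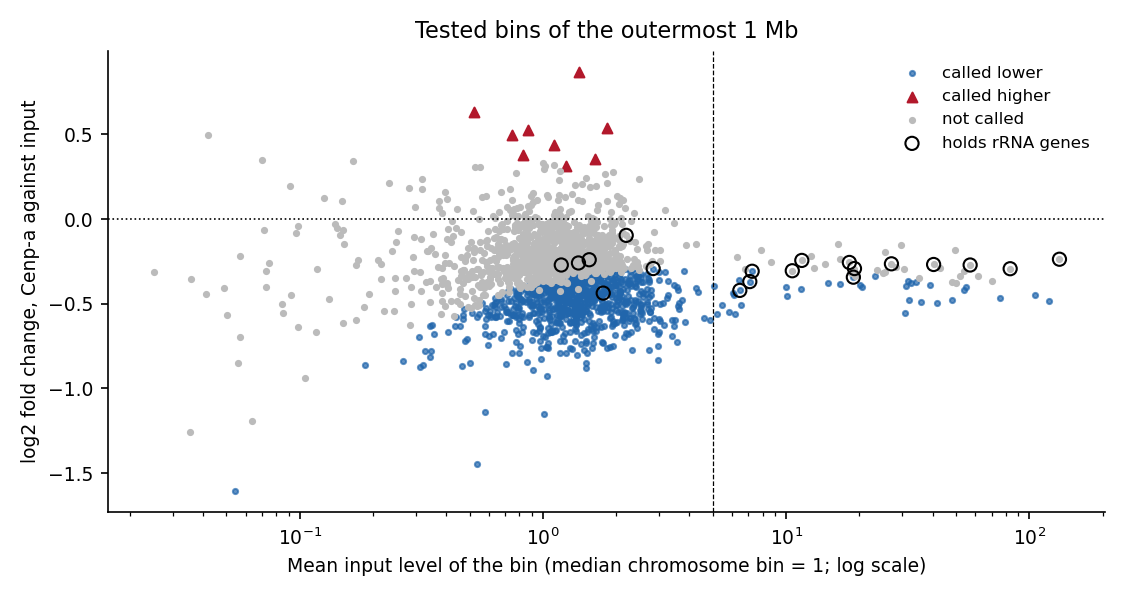
The 1959 tested end bins by mean input level (x axis, log scale, median chromosome bin = 1) and log2 fold change of Cenp-a against input (y axis), coloured by call, with bins that hold rRNA genes ringed; the dashed line marks an input level of 5. Nearly all points lie below 0, the 9 higher bins have input levels between 0.519 and 1.83, and the bins above 5 keep to a narrow band of fold changes.

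Taken end by end, in windows that sum the 100 bins, all 20 ends were lower in Cenp-a than in input, relative to the chromosome total of each library. The log2 fold changes of Cenp-a against input ran from -0.37 (right end of chromosome 2 and left end of chromosome 6) to -0.26 (right ends of chromosomes 3 and 10), with a median of -0.32 and standard errors of 0.051 to 0.099. By the same test over 1455 windows of 1 Mb, 19 ends were called lower, where 22.1% of all windows were. The adjusted p ran from 0.0292 to 0.0509, and the end that missed the threshold was the left end of chromosome 5 (-0.27, SE 0.08). The 20 values differed from one another by less than the replicates did: over its own input, an end stood at 0.662 to 0.764 in Cenp-a 1, at 0.876 to 0.944 in Cenp-a 2 and at 0.757 to 0.823 in Cenp-a 3. The range of Cenp-a 2 lay apart from the other ranges, and those of Cenp-a 1 and 3 met only at their limits.

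H3/H4 against input was below 0 at all 20 ends as well, with a median of -0.22 and a range of -0.31 to -0.16. It passed the test at 13 ends, where 6.46% of all windows were lower, and the count was 0 without the replicate block, by DESeq2, with TMM factors and without replicate 1 or 3, and 20 without replicate 2. Cenp-a against H3/H4 was below 0 at all 20 ends, from -0.14 to -0.02, and 4 were called, where 2.41% of windows were lower: the left ends of chromosomes 3 (-0.13), 4 (-0.14) and 8 (-0.13) and the right end of chromosome 4 (-0.12). That count was 0 without the block, by DESeq2, with TMM factors and without replicate 2, and it was 12 without replicate 1 and 1 without replicate 3. IgG against input was above 0 at all 20 ends, from 0.02 to 0.14, in the fit of both libraries. The libraries differed: over its own input an end stood at 1.05 to 1.16 in IgG 2 and at 0.98 to 1.07 in IgG 3. IgG 3 was below its input at 8 of the 20 ends. No end was called in IgG against input, where 0.00% of all windows were higher and 0.0687% lower. Before adjustment, 5 ends had an edgeR p under 0.05. How many of all windows did so is not given, so these 5 ends cannot be compared with the other windows.

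**Figure D4:**
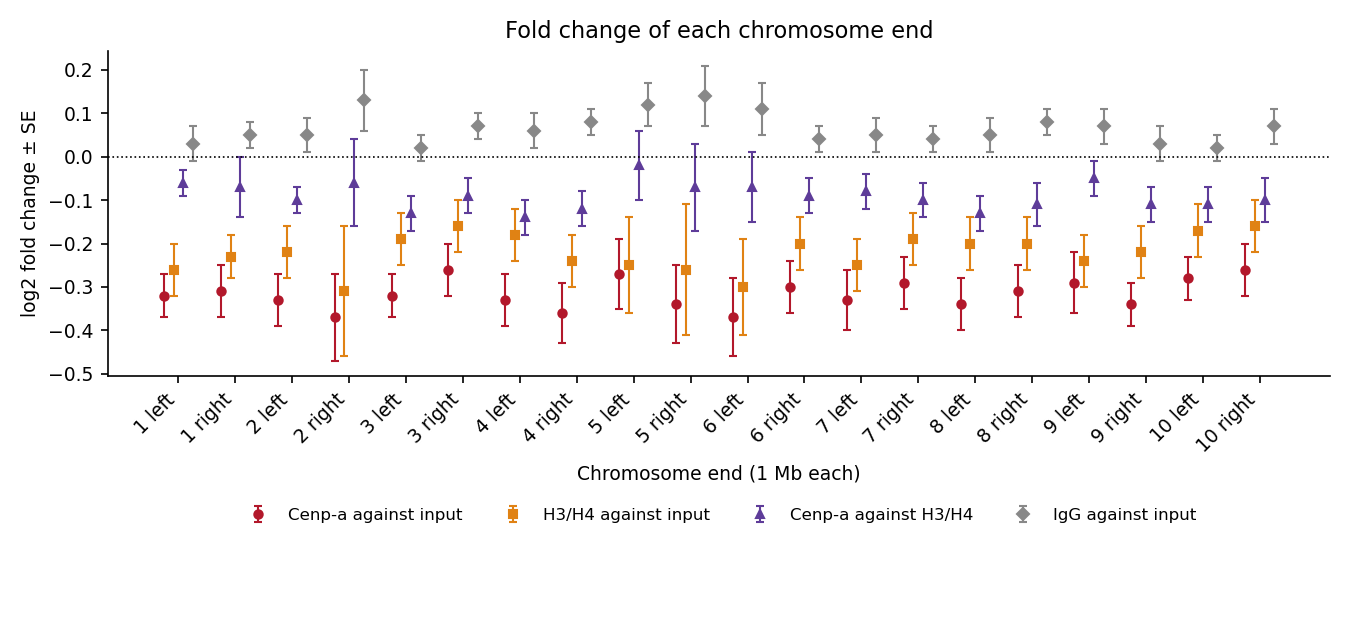
Log2 fold change ± SE of each chromosome end (1 Mb, left and right ends of chromosomes 1 to 10 on the x axis) in 4 comparisons, from edgeR fits with the replicate as a block. Cenp-a against input lies between -0.37 and -0.26 at every end, H3/H4 against input between -0.31 and -0.16, Cenp-a against H3/H4 between -0.14 and -0.02 and IgG against input between 0.02 and 0.14.

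The ends differed far more in how many reads they held at all than in the ratio of Cenp-a to input. With the mean of the other chromosome bins of a library as 1, the lowest end was the right end of chromosome 1, at 0.673 ± 0.031 in Cenp-a and 0.836 ± 0.0647 in input, and the highest the right end of chromosome 5, at 4.98 ± 0.309 in Cenp-a and 6.32 ± 0.516 in input (SD, n = 3 each). The right end of chromosome 2 followed at 4.80 ± 0.316 in Cenp-a and 6.26 ± 0.613 in input. Then came the left end of chromosome 6, at 3.00 ± 0.221 in Cenp-a and 3.89 ± 0.337 in input, and the left end of chromosome 5, at 3.09 ± 0.162 in Cenp-a and 3.76 ± 0.425 in input. All other ends were at 1.77 or less in input. The right ends of chromosomes 5 and 2 differed by less than the SD between libraries, as did the left ends of chromosomes 6 and 5. Within a library, the right end of chromosome 5 was above that of chromosome 2 in each Cenp-a library and in inputs 2 and 3. In input 1 it was not (6.90 against 6.94). The left end of chromosome 5 was above that of chromosome 6 in each Cenp-a library and below it in each input. These differences between ends were not tested.

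The right end of chromosome 2 shows how the libraries compare at such an end. Its level was 4.60, 5.16 and 4.64 in Cenp-a, 4.24 in H4 1, 6.31 and 4.73 in H3 2 and 3, 6.49 and 6.48 in IgG, and 6.94, 5.75 and 6.09 in input. The Cenp-a libraries lay below the inputs, and H3 2 and both IgG libraries lay among the inputs. The left end of chromosome 5, where the Cenp-a difference missed the threshold, had 3.07, 3.26 and 2.94 in Cenp-a, 3.11 in H4 1, 3.25 and 3.07 in H3 2 and 3, 4.00 and 3.65 in IgG, and 4.24, 3.46 and 3.57 in input. At this end H3 2 lay with the Cenp-a libraries and below all 3 inputs.

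Left and right ends of one chromosome were unlike on several chromosomes. The right end was the higher one on chromosome 2, by 6.29 ± 0.0857 times in Cenp-a and 6.51 ± 0.125 times in input (SD over 3 libraries each). The right end was also higher on chromosome 5 (1.61 ± 0.0559 times in Cenp-a, 1.69 ± 0.0535 times in input), chromosome 8 (1.65 ± 0.0383 times in Cenp-a, 1.62 ± 0.0216 times in input) and chromosome 4 (1.49 ± 0.0408 times in Cenp-a, 1.53 ± 0.0478 times in input). Chromosomes 10 and 7 followed, at 1.31 ± 0.0124 and 1.24 ± 0.013 times in Cenp-a and 1.29 ± 0.0145 and 1.21 ± 0.00823 times in input. The left end was the higher one on chromosome 6, by 2.81 ± 0.103 times in Cenp-a and 2.95 ± 0.061 times in input, and on chromosome 1, by 1.20 ± 0.00614 times in Cenp-a and 1.21 ± 0.0161 times in input. Chromosomes 3 and 9 had nearly equal ends, with left over right at 0.992 ± 0.0209 and 1.05 ± 0.0313 in Cenp-a and 1.03 ± 0.0183 and 1.02 ± 0.0132 in input. These ratios repeated closely between the Cenp-a and input libraries, which share the assembly and the mapping. The H3/H4 libraries spread more on some chromosomes. On chromosome 5, left over right was 0.708 in H4 1, 0.489 in H3 2 and 0.626 in H3 3, against 0.615, 0.585 and 0.579 in input. On chromosome 1 they were closer, at 1.14 in H4 1, 1.22 in H3 2 and 1.21 in H3 3. By the median bin of each end, left over right in input was 0.639 on chromosome 2 and 0.879 on chromosome 6, so on chromosome 6 the order turned round, whereas on chromosome 8 (0.65) it did not.

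**Figure D5:**
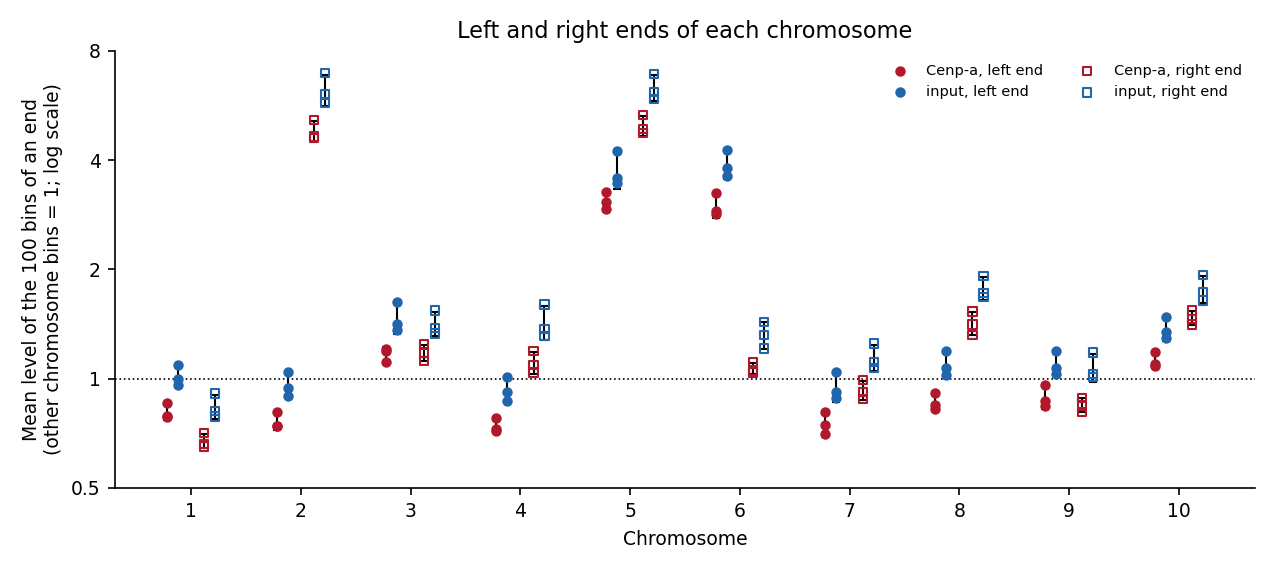
Mean level of the 100 bins of each end (y axis, log scale, other chromosome bins = 1) for chromosomes 1 to 10; filled circles are left ends, open squares right ends, red Cenp-a and blue input, with 3 libraries each and bars for mean ± SD. Both ends of chromosome 5, the right end of chromosome 2 and the left end of chromosome 6 stand at 2.84 or above in Cenp-a and 3.46 or above in input.

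The difference between Cenp-a and input was nearly the same on both sides of a chromosome. The left-minus-right difference of log2 Cenp-a over input was tested with limma on 719 mirrored pairs of 1-Mb windows, the outermost pair of each chromosome among them. Only chromosome 5 was called among the 10 outermost pairs (0.07, SE 0.018, adjusted p = 0.0462), where 28.1% of all pairs were called. On the other 9 chromosomes the difference lay between -0.07 (chromosome 6, SE 0.025, adjusted p = 0.0872) and 0.05 (chromosome 2, SE 0.024, adjusted p = 0.157). The chromosome 5 call was lost without replicate 1, without replicate 3 and without the replicate block, and the number called was 4 without replicate 2 and 2 with windows of 500 kb. For H3/H4 against input none of the 10 outermost pairs was called by limma, as was 0.00% of all 719 pairs.

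Very high input levels were concentrated in a few stretches near the tips. Above 5 times the median chromosome bin in mean input level, a limit chosen after the values were seen, were 72 end bins (3.6%) and 0.576% of the other chromosome bins. Above 20 times were 39 end bins of 139 on all chromosomes. Joined over gaps of up to 20 kb, the 72 bins made 21 stretches, of which 17 were of 1 or 2 bins. Of the 4 longer ones, 3 reached the tip of their chromosome: positions 180875222 to 181025221 of chromosome 2 (150 kb), 163843749 to 164023748 of chromosome 5 (180 kb) and 1 to 100000 of chromosome 6 (100 kb).

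The chromosome 2 stretch held 15 bins with an input level of up to 120 times the median bin, and no gene of the RefSeq table (assembly UCB_Xtro_10.0) reaches into it, since the last gene of chromosome 2 ends 182731 bp before the end of the table. It alone took 0.258%, 0.293% and 0.264% of the chromosome counts in Cenp-a and 0.394%, 0.326% and 0.347% in input. Over the input of its replicate it stood at 0.656, 0.899 and 0.76 in Cenp-a, 0.597 in H4 1, 1.11 and 0.776 in H3 2 and 3, and 1.14 and 1.07 in IgG. The chromosome 5 stretch (maximum 76.1 times) stood at 0.673, 0.903 and 0.781 in Cenp-a, and the chromosome 6 stretch (maximum 70 times) at 0.65, 0.907 and 0.761. Within a library these ratios differed less between the 3 stretches than between the replicates of Cenp-a. Of their bins, 10 of 15, 7 of 18 and 4 of 10 were called lower in Cenp-a than in input. The share called lower was 44.0% of all tested end bins and 5.47% of all tested chromosome bins.

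The fourth long stretch was of another kind. At positions 430001 to 480000 of chromosome 5, 430 kb from the left tip, 5 bins reached 133 times the median input, the highest of all end bins, and they cover all 161 genes of biotype rRNA at that end, annotated between 434341 and 476958. The bin at 470001 had levels of 113, 114 and 106 in Cenp-a, 105 in H4 1, 110 and 110 in H3 2 and 3, 141 and 132 in IgG, and 156, 118 and 124 in input. Cenp-a was below its own input in each replicate, but the log2 fold change of -0.24 (SE 0.14, adjusted p = 0.293) did not pass the test, and none of the 5 bins was called. Over its own input the stretch stood at 0.728, 0.955 and 0.835 in Cenp-a, 0.712 in H4 1 and 0.918 and 0.879 in H3 2 and 3. H3 2, at 0.918, was here below its input, unlike at the 3 stretches at the tips, where it was 1.09 to 1.13.

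Genes of biotype rRNA, which encode RNA parts of the ribosome, were frequent at chromosome ends. The RefSeq table has 463 of them on the chromosomes. Of these, 292 (63.1%) lie in the outermost 1 Mb or past its last bin, as do 913 of all 28773 genes (3.17%). Of the 51 so counted at the right end of chromosome 10, 22 reach into the bins, which stop at 52424419. The rest of the 51 lie past the last bin. Most rRNA genes have one length: by the same count, 278 of the 401 rRNA genes of 119 bp (69.3%) are in the ends. Frogs are known for arrays of 5S rRNA genes near chromosome ends, mainly from *Xenopus laevis*, but the table gives only the biotype, so the type of rRNA was not assigned. The members lie at 7 of the 20 ends: 161 at the left end of chromosome 5, 51 at the right end of chromosome 10, 27 at the left end of chromosome 2, 22 and 19 at the right ends of chromosomes 8 and 9, 7 at the left end of chromosome 7 and 5 at the right end of chromosome 6. At the right end of chromosome 2 none lies in the outer 1 Mb, and 65 lie just outside it, between 179665664 and 179705710.

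The 19 end bins that hold rRNA genes had a median input level of 10.6 times the median chromosome bin, from 1.19 to 133. In Cenp-a against input, 6 of them were called lower and none higher, with a median log2 fold change of -0.27, near that of all end bins. Lower calls made up 44.0% of all tested end bins and 5.47% of all tested chromosome bins. Their share of the chromosome counts was 0.214%, 0.236% and 0.212% in Cenp-a, 0.209% in H4 1, 0.229% and 0.223% in H3 2 and 3, 0.286% and 0.266% in IgG, and 0.294%, 0.25% and 0.256% in input. Copies of such genes are near-identical, so reads can be placed in any of them, and the level of a single bin is uncertain.

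The other gene classes had smaller shares at the ends. The ends, which are 1.38% of the chromosome bins, hold 65 of 548 pseudogenes (11.9%), 5 of 65 V segments (7.69%) and 1 of 7 C regions (14.3%) of antigen receptor genes, 514 of 21749 protein-coding genes (2.36%), 8 of 342 snoRNA genes (2.34%), 26 of 2350 lncRNA genes (1.11%) and 1 of 614 snRNA genes (0.163%). None of 2366 tRNA genes, 187 microRNA genes or 28 genes with histone names lies in them. Of the 44 genes with names of olfactory receptors, which detect odours and form subtelomeric clusters in some mammals, 1 is in the ends, and of 201 named zinc finger genes 6 are. Histone, olfactory receptor and zinc finger genes were found by symbol alone. Genes with LOC symbols were not counted, so these families may be incomplete and their absence from the ends cannot be read from the counts. Gene counts per end ran from 16 (right end of chromosome 2 and left end of chromosome 3) to 188 (left end of chromosome 5). All these counts take in genes past the last bin of chromosomes 8 and 10. One of them is pcgf1, at 147235831 to 147239558, where the bins of chromosome 8 stop at 147232275. The outermost annotated protein-coding genes include slc2a1 (a glucose transporter) at the left end of chromosome 5, rpl10 (a protein of the large ribosomal subunit) and pcgf1 (a Polycomb group protein) at the left and right ends of chromosome 8, mapre1 (a protein of growing microtubule ends) at the left end of chromosome 10 and trpv6 (a calcium channel) at the left end of chromosome 7.

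The tips themselves were uneven. The outermost bin of the 20 ends had a mean input level of 0.747 to 25.4 times the median chromosome bin, with a median of 3.89, and 10 of the 20 were above 2 and 5 below 1. All 20 were tested for Cenp-a against input, with a median log2 fold change of -0.24, and 5 were called lower and none higher. Among all tested end bins 44.0% were called lower, and among all tested chromosome bins 5.47%. The highest was the left tip of chromosome 10, with levels of 21.8, 23.0 and 20.9 in Cenp-a, 21.1 in H4 1, 25.2 and 21.2 in H3 2 and 3, 25.5 and 25.7 in IgG, and 27.7, 24.2 and 24.3 in input. Cenp-a lay below all inputs there, yet the change of -0.20 (SE 0.11, adjusted p = 0.29) was not called. The left tip of chromosome 1 was called, at 3.48, 5.07 and 4.09 in Cenp-a against 6.52, 5.66 and 6.23 in input (log2 fold change -0.56, SE 0.11, adjusted p = 0.00169). The lowest tip, the left one of chromosome 5, had 0.644, 0.695 and 0.69 in Cenp-a and 0.825, 0.68 and 0.735 in input, and the groups overlapped.

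The 9 end bins that were higher in Cenp-a than in input lay outside the high stretches. Those at 51533929 and 51543929 of chromosome 10 are close to the 1-bin stretch at 51563929. Of the 9, 7 overlap a protein-coding gene (77.8%), near the 69.9% of all tested end bins that do (1370 of 1959). The largest change was at 51533929 to 51543928 of chromosome 10, which covers the whole of ddx5 (51534563 to 51542822), an RNA helicase. This bin had 3.04, 2.02 and 2.56 times the median bin in Cenp-a, 2.76 in H4 1, 1.55 and 1.55 in H3 2 and 3, 2.21 and 1.61 in IgG, and 1.43, 1.32 and 1.47 in input. The Cenp-a libraries lay above all inputs but did not stand clear of H4 1 or IgG 2, and the log2 fold change was 0.87 (SE 0.10, adjusted p = 3.22e-06) against input and 0.40 (SE 0.11, adjusted p = 0.149) against H3/H4. Next to it, the bin at 51543929, which overlaps polg2 (a subunit of the mitochondrial DNA polymerase), was higher by 0.38.

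Another bin of the same end, at 51673929, overlaps tex2.2 and was the only end bin where Cenp-a was called higher both against input and against H3/H4. It had levels of 3.34, 2.16 and 2.42 in Cenp-a, 2.12 in H4 1, 1.69 and 1.30 in H3 2 and 3, 2.21 and 1.80 in IgG, and 2.07, 1.59 and 1.81 in input. Each Cenp-a library was above every input and every H3/H4 library, while IgG 2 was above Cenp-a 2. The log2 fold changes were 0.53 (SE 0.09, adjusted p = 0.000715) against input and 0.64 (SE 0.10, adjusted p = 4.05e-05) against H3/H4.

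The other higher bins changed by 0.63 or less. The bin at 20001 of chromosome 5 lies almost wholly in slc2a1 (21682 to 42700) and had 0.927, 0.707 and 0.749 in Cenp-a against 0.569, 0.49 and 0.499 in input (log2 fold change 0.63, SE 0.13, adjusted p = 0.00341). Against H3/H4 its change of 0.48 was not called (adjusted p = 0.554). Further bins overlap polr2a (the largest subunit of RNA polymerase II) and shbg on chromosome 3 (0.44), fdps (an enzyme of isoprenoid synthesis) on chromosome 8 (0.35) and dbi (an acyl-CoA binding protein) with tmem37 on chromosome 9 (0.50). The remaining higher bins, at 580001 of chromosome 1 (0.52) and 163493749 of chromosome 5 (0.31), overlap no gene of the table. In these, H3/H4 against input was 0.67 and 0.47, without a call. The genes of the 9 bins were not chosen as a list, and no shared function was tested. Without replicate 1 or without replicate 3 the number of higher end bins was 3, without replicate 2 it was 20, and DESeq2 called 3, again without shares over all bins.

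The lowest end bins were not in the high stretches either. The bin at 70001 of chromosome 2 had 0.139, 0.183 and 0.236 times the median bin in Cenp-a, 0.234 in H4 1, 0.381 and 0.164 in H3 2 and 3, 0.667 and 0.397 in IgG, and 0.466, 0.581 and 0.557 in input. Each Cenp-a library was below every input (log2 fold change -1.45, SE 0.18, adjusted p = 1.86e-05), and no gene overlaps the bin. The bin at 540001 of chromosome 3 had 0.533, 0.439 and 0.372 in Cenp-a against 1.51, 0.791 and 0.746 in input (-1.15, SE 0.14, adjusted p = 7.25e-06), and it was also lower in H3/H4 than in input (-0.83, SE 0.13, adjusted p = 0.0401). Input 1 stood well above the other inputs in this bin. The second bin lower in H3/H4 than in input lies at 870001 of chromosome 10, with 0.934 in H4 1, 1.04 and 0.705 in H3 2 and 3 and 1.64, 1.38 and 1.47 in input (-0.73, SE 0.12, adjusted p = 0.0494).

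The lowest value of all rests on few reads. The bin at 590001 of chromosome 5, inside klc4 (a kinesin light chain), had 8, 0 and 22 counts in Cenp-a and 13, 17 and 27 counts in input, and its log2 fold change of -1.61 has a standard error of 0.51 (adjusted p = 0.0473). Because Cenp-a 2 had no count there, the fitted value depends on the prior count. The only end bin lower in Cenp-a than in H3/H4 was at 680001 of chromosome 8, in the genes LOC100498557 and LOC100485203. It had 0.874, 0.756 and 0.898 in Cenp-a, 1.67 in H4 1, 1.39 and 1.07 in H3 2 and 3, and 1.33, 1.25 and 1.24 in input. Cenp-a was below every H3/H4 library and every input (log2 fold change -0.66, SE 0.13, adjusted p = 0.0014 against H3/H4, and -0.55, SE 0.11, adjusted p = 0.0019 against input).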

How the data were processed

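Native MNase ChIP and input DNA of XTN-6 cells was sequenced in 11 libraries. The deposited tables give unnormalized read counts in 10-kb bins. Per the study's methods, the authors trimmed reads with Trimmomatic 0.39, aligned pairs with minimap2 2.17-r941 to the unmasked v10 genome, used SAMtools 1.9, and counted with deepTools 3.3.0 at any mapping quality; no removal of duplicates is named. Reads of repeats are therefore shared out among copies.

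Chromosome numbers and genes come from the RefSeq gene table (UCB_Xtro_10.0), which gives gene limits without exons. No genome sequence was used, so base composition, repeats and mappability of the ends were not computed and no sequence is shown. A gene belonged to an end when its middle did.

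Bins were tested with edgeR 4.0.16 (R 4.3.3; glmQLFit, glmQLFTest), with library size the total count on the chromosomes, no further normalization factor, a minimum of 10 counts in 50% of the libraries compared, and the replicate as a block. Standard errors were derived from the size of the log2 fold change and the F statistic. Windows of 1 Mb (summed bins) were tested likewise: the 20 end windows and, between them, consecutive windows of 100 bins from the left end window on. Left-minus-right differences were tested with limma 3.58.1 on log2 ratios with a prior count of 0.5. For these, windows were counted from each end. All p-values were adjusted by Benjamini-Hochberg over all bins, windows or pairs of a comparison. The pairing follows the study's methods: the input of a replicate is a sample of the chromatin its ChIPs used. The deviations from the group means of same-numbered libraries correlated at 0.115, -0.0442 and 0.124 for Cenp-a with input, 0.132, -0.0917 and 0.133 for H3/H4 with input and 0.211, 0.186 and 0.164 for Cenp-a with H3/H4 over 140047 bins. Libraries of unlike number ranged from -0.209 to 0.14, from -0.256 to 0.187 and from -0.177 to -0.03 in these comparisons. The highest correlation with input thus came from a pair of unlike number for both Cenp-a and H3/H4. Levels over all ends were compared by exact permutation tests (scipy).

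The bins to name were the 3 called end bins with the largest change in each direction and comparison, called bins of at least 5-fold (none), the 5 end bins of highest input, the outermost bins, and the ends. Of the 5 bins of highest input and the outermost bins, only some are given with their values in the text. The further bins higher in Cenp-a were named after their values were seen. Members and lists were chosen with earlier results of these data known. Alternatives were TMM factors, DESeq2 1.42.0, no count filter, no block, each replicate left out, 2-fold and 5-fold limits, ends of 500 kb and 2 Mb, medians, the bins at 1 to 5 Mb as reference and a prior count of 5. The tests were checked on simulated data.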

Additional observations from a re-analysis of the deposited data

Results flagged for a closer look

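The left-minus-right difference of Cenp-a over input at the ends of chromosome 5 was called by limma at 0.07 on the log2 scale (SE 0.018, adjusted p = 0.0462), while the other 9 chromosomes were not called. It is listed because the left and right ends of a chromosome differ in the same contrast, and 28.1% of the 719 mirrored pairs of windows were called the same way. The left end of chromosome 5 holds 161 rRNA genes and the right end a 180-kb stretch of high input; their part in the difference was not tested.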

How the results depend on the processing

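Counts of end bins and ends moved with the settings, and their direction mostly did not. Shares over all chromosome bins, windows or pairs are not given for the other fits, so the counts show only how the calls moved. In Cenp-a against input, DESeq2 called 275 end bins lower and 3 higher, and at least 2-fold were 4 lower and 0 higher, at least 5-fold 0 and 0; leaving out one replicate gave 170 to 1196 lower and 3 to 20 higher bins and 16 to 20 lower ends. In H3/H4 against input the lower bins were 0 with TMM factors, 0 without the replicate block, 13 by DESeq2, 1 without the count filter and 0 at 2-fold or 5-fold; the lower ends were 0 with TMM factors, without the replicate block and by DESeq2; leaving out one replicate gave 2 to 537 lower and 0 to 4 higher bins and 0 to 20 lower ends. In Cenp-a against H3/H4 the lower bins were 0 without the replicate block, by DESeq2 and at 2-fold or 5-fold, the higher bins 0 without the block and at 2-fold or 5-fold, and the lower ends 0 with TMM factors, without the block and by DESeq2 and 1 with 500-kb ends; leaving out one replicate gave 1 to 4 lower and 0 to 2 higher bins and 0 to 12 lower ends. Without the replicate block, Cenp-a against input still had 779 lower and 8 higher end bins and 20 lower ends, and no chromosome called left minus right. That last count was 2 with 500-kb windows and 0 to 4 with one replicate left out. The cause of these changes was not tested.

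Directions that turned belonged to values that were not called in the main test. With 500-kb windows the left-minus-right difference of Cenp-a against input was 0.07 on chromosome 7, 0.11 on chromosome 8 (adjusted p = 0.0396) and 0.03 on chromosome 10, and that of H3/H4 against input 0.04, 0.11, 0.01 and 0.02 on chromosomes 7, 8, 9 and 10. With one replicate left out, the H3/H4 difference ran from -0.03 to 0.18, -0.07 to 0.16, -0.03 to 0.01 and -0.07 to 0.05 on chromosomes 2, 5, 8 and 10, Cenp-a against H3/H4 from -0.10 to 0.00, -0.16 to 0.04, -0.16 to 0.05 and -0.14 to 0.02 at the left end of chromosome 1, the right ends of chromosomes 2 and 5 and the left end of chromosome 6, and Cenp-a against input from -0.05 to 0.11 in the left tip bin of chromosome 2 and from -0.27 to 0.04 in the right tip bin of chromosome 4. By median bins, left over right in the inputs of chromosome 6 was 0.879. Relative to bins 1 to 5 Mb from an end, the ratio of end levels of Cenp-a to input was 0.937 in place of 0.794. That of H3/H4 to input was 0.937 in place of 0.847. The exact permutation test gave an adjusted p of 0.3 for each, and 3 against 3 libraries cannot reach 0.05. IgG against input had no call under any setting run, its libraries are those of replicates 2 and 3, and leaving out either left it no residual degrees of freedom, so that fit was not run. Depth limits bins in IgG 2, with a median of 29 counts per end bin. Leaving out the 4 ends and taking median bins of an end were alternatives chosen after seeing the data.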
